A study of Mus musculus with 12 samples.

Results

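Innate immune sensors, inflammasome components and the signalling chain of NF-kB were examined in the renal cortex of nephrotic and normal mice. The set was a list of 47 genes, and its members were the probe sets of the array table whose annotated symbol was on the list. A probe set was named for 42 of the 47 genes, against 18193 genes over the whole array. Of these, 34 members were tested, out of 12385 genes tested in all, because a probe set was tested only where its signal lay above the median of its own array in at least 3 of the 12 arrays.

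Toll-like receptors (TLRs) recognise microbial molecules and some molecules released by damaged tissue. They signal through the adaptor MyD88, the IRAK kinases and the TRAF ubiquitin ligases to the IKK complex. IKK marks the IkB proteins for destruction, which releases NF-kB dimers to the nucleus, where they induce chemokines, cytokines and several of their own inhibitors. In a separate arm, NLRP3, the adaptor ASC (Pycard) and inflammatory caspases form inflammasomes that mature interleukins and cleave the pore protein gasdermin D. In the kidney these genes are active in resident and recruited macrophages and in injured tubule cells.

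ICGN, an inbred offshoot of the ICR stock, develops a nephrotic syndrome and carries a defective Tns2 gene, which encodes a tensin of focal adhesions. ICR mice, labelled normal, were the controls. Total RNA of renal cortex was hybridised to Affymetrix Mouse Genome 430 2.0 arrays from ICGN mice of 4 weeks, ICR mice of 4 weeks, ICGN mice of 8 weeks and ICR mice of 8 weeks, with 3 arrays in each of the 4 groups. The labels name no treatment and do not say that the replicates came from separate mice, so the p-values measure only the spread between these samples. Nephrotic state and any other difference between the strains cannot be told apart.

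Deposited array medians ran from 17.4 to 19.0 at 4 weeks and from 75.3 to 108 at 8 weeks, and every array was scaled to a common median of 47.18. All levels below are signals on that scale, without a unit, and levels of different probe sets are not set against each other. All differences are log2 values of the signal plus an offset of 12.91, given with the standard error of the fit. Each is printed relative to the median gene, which stood at -0.02 for ICGN minus ICR at 4 weeks and at -0.18 at 8 weeks. A gene is called higher or lower at an adjusted p of 0.05 or less, by limma's moderated test over all tested genes on the difference before that subtraction. Arrays within a group correlated at 0.978 or more. On this scale ICGN replicate 3 of 8 weeks stood apart: it was the highest of its group for 63.8% of all tested genes and for 30 of the 34 members (replicate 1 for 12% and 1, replicate 2 for 24.2% and 3). Its deposited median of 87.02 was the lowest of that group (107.8 in replicate 1 and 95.14 in replicate 2), so scaling to the common median lowered its signals least. The 8-week count of members and some list counts are given with and without it.

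At 8 weeks 18 of the 34 members were called higher in ICGN than in ICR and 2 were called lower, while 8.49% of all tested genes were called higher and 26% lower (34.5% in either direction). The median difference of the members was 0.77. The TLR2 receptor, the NF-kB inhibitors Nfkbie and Tnfaip3 and the LPS co-receptor Cd14 differed by 1.72 to 2.24. Of the 18, the inflammatory caspase Casp4 and the RNA sensor Tlr13 had all ICR arrays under the array median and passed the filter only through ICGN arrays. Relb and Nlrp3, also of the 18, would not have passed it on their ICR arrays alone. In 20 members every ICGN array lay above every ICR array, a pattern seen in 11.2% of all genes. The reverse held for 2 members and for 33.3% of all genes. Without ICGN replicate 3 the count was 13 higher and 2 lower of 32 members tested, and Gsdmd, Nfkb2, Nfkbia, Nlrp3 and Tlr3 lost their call. Over all genes 719 were then called higher and 3518 lower, against 1052 and 3225 with that array. The background also depends on the scaling. Quantile normalization called 1698 of all genes higher and 1669 lower, with 20 members higher and 1 lower. The deposited scaling called 2419 of all genes higher and 1563 lower, with 25 members higher and 0 lower.

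At 4 weeks the same comparison called 5 of the 34 members higher and 0 lower, against 1.6% and 1.39% of all tested genes (2.99% in either direction). These were Tnfaip3, Birc3, Cd14, Tlr13 and Nfkb2, and each was called at 8 weeks too. The share of all tested genes called higher at both ages was 1%. The median difference of the members was 0.26, and 13 members had no overlap between the groups with ICGN higher, a pattern of 10.8% of all genes. The calls rest on few arrays: leaving out any 1 of the 6 arrays of this age left 2 or 3 calls, and Cd14 and Tnfaip3 were the members called under every alternative tried. Across the 34 members the differences at the 2 ages correlated with r of 0.67 and rho of 0.643, against 0.446 and 0.336 over all genes. The arrays of the ages are separate but enter one fit, and genes are not independent points. Casp4 and Tlr13 are among the 34 and were tested only through ICGN arrays. The members were also chosen with earlier results of these data known. The higher correlation of the members therefore cannot be read as particular to the set.

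**Figure D1:**
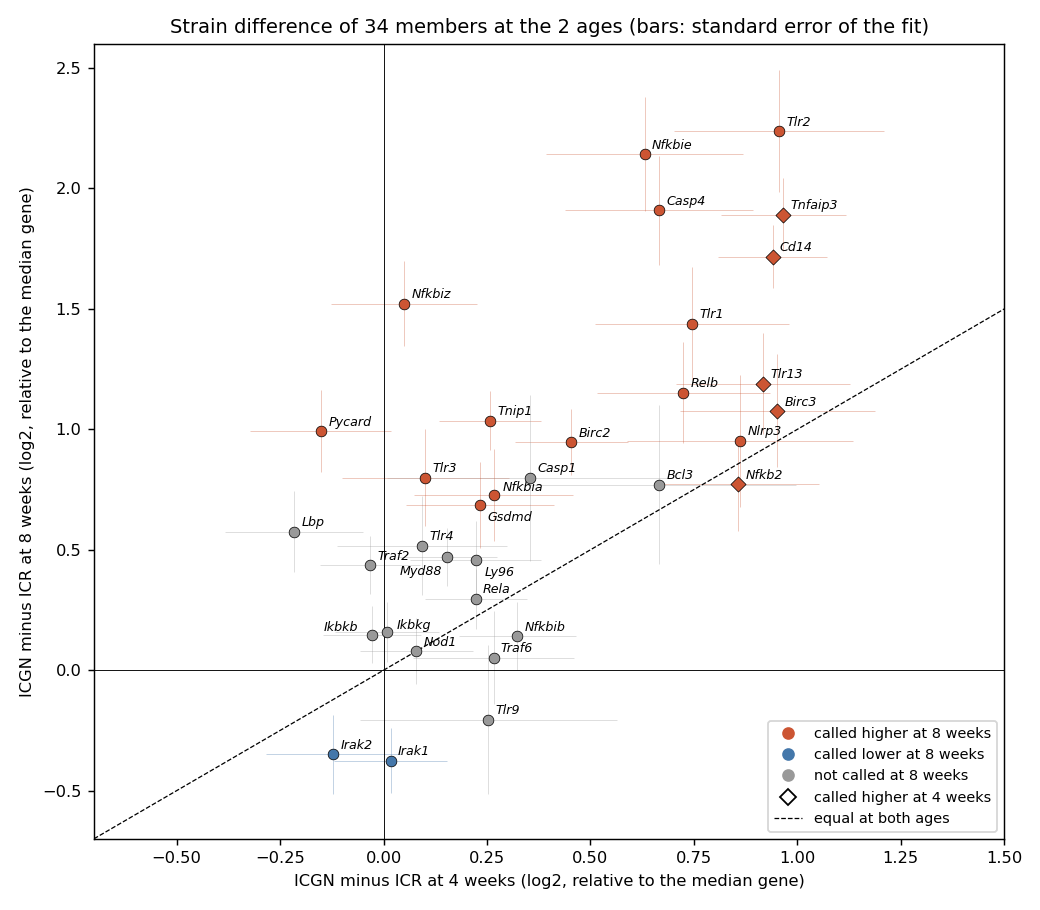
Strain difference (ICGN minus ICR, log2, relative to the median gene) of the 34 tested members at 4 weeks on the horizontal axis and at 8 weeks on the vertical axis, with bars for the standard error of the fit and a dashed line of equality. Red and blue points were called higher and lower at 8 weeks, and diamonds were also called at 4 weeks. Tlr2, Nfkbie, Tnfaip3 and Cd14 lie from 1.72 to 2.24 at 8 weeks. The positions of dim members, among them Casp4, Tlr13 and Nlrp3, depend on the offset.

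Because several inhibitors and receptors of the set rose together at 8 weeks, the bases just before their gene starts were searched for the letters of an NF-kB site. The search used GGG, any 3 bases and then TTCC, on both strands, in the 250 bases before each start in RefSeq's promoter table of build GRCm38.p6. That spelling was chosen after several spellings had been tried on these windows, so the shares are a description. The letters were present before at least 1 start of 1434 of 27025 genes (5.31%) and of 11 of the 36 members the table holds (30.6%). They were present in 8 of the 14 members called higher at 8 weeks that the table holds (Tlr2, Tlr3, Nfkb2, Nfkbia, Nfkbie, Tnfaip3, Tnip1 and Casp4), in 0 of the 12 tested members that were not called higher, and in 3 of the 10 untested ones (Tlr6, Traf3 and Rel). The degenerate kappaB consensus was present in 8.23% of all genes, in 9 of the 14 (64.3%), in 1 of the 12 and in 2 of the 10. A match of letters is a description and shows no binding. The windows of 6 members called higher are shown, at the start farthest upstream where a gene has several, 5′ to 3′ on the strand of the gene and ending at the base before the start, with the matching letters of either strand in capitals.
Tnfaip3: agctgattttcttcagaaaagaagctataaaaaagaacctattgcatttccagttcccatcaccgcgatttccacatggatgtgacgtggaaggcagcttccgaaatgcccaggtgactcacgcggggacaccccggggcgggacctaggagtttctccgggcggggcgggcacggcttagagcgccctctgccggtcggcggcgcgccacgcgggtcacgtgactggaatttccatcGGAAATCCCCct
Nfkbia: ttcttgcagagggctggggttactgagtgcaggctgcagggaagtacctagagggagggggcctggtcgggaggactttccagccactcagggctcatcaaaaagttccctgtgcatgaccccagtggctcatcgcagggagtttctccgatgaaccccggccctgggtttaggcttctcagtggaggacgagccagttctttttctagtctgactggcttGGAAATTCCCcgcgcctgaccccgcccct
Nfkbie: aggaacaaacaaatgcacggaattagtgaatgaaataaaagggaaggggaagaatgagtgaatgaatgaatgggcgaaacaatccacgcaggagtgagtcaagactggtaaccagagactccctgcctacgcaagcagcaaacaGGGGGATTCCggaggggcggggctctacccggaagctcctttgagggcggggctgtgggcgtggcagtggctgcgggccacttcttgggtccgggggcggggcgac
Tnip1: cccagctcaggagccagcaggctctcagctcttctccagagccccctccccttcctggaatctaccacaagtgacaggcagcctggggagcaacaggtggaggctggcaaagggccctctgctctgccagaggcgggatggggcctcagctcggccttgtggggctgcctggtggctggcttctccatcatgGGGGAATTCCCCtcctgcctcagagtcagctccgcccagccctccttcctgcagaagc
Tlr2: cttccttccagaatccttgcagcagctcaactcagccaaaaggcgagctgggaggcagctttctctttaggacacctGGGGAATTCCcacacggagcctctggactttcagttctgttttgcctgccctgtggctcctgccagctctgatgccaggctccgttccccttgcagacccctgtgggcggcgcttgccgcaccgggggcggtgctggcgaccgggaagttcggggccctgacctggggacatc
Casp4: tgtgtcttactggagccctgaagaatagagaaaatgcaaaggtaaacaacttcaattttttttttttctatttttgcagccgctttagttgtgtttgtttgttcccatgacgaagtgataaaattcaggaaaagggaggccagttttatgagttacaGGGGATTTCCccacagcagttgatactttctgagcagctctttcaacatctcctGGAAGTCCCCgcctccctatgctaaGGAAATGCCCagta

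These windows are chr10:19015411-19015660 on the minus strand for Tnfaip3, chr12:55492648-55492897 on the minus strand for Nfkbia and chr17:45555450-45555699 on the plus strand for Nfkbie. They are chr11:54962941-54963190 on the minus strand for Tnip1, chr3:83841609-83841858 on the minus strand for Tlr2 and chr9:5308599-5308848 on the plus strand for Casp4, all in GRCm38.p6 and upstream of the annotated transcript. In Tnfaip3 the match lay 12 to 3 bases before the start, and in Nfkbia 29 to 20 bases before it, both on the opposite strand. In Nfkbie it lay 106 to 97 bases before the start on the sense strand. In Tnip1 a sense match (58 to 49 bases before the start) and an antisense match (56 to 47) overlap in one palindrome. In Tlr2 a single sense match lay 173 to 164 bases before the start. Casp4 held 3 separate matches, one on the sense and the others on the antisense strand.

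Among the Toll-like receptors of the cell surface, Tlr1 and Tlr2 were called higher at 8 weeks and Tlr4 was not. Tlr2, the receptor for bacterial lipoproteins, had signals of 232, 206 and 421 in the ICGN arrays of 8 weeks and of 70.4, 45.9 and 53.4 in the ICR arrays. The lowest ICGN array lay well above the highest ICR array, and replicate 3 was the highest of all. The difference was 2.24 ± 0.25 (SE, n = 3 arrays per group, limma adjusted p = 4.41e-05). At 4 weeks Tlr2 read 91.7, 91.5 and 160 in ICGN and 58.7, 51.2 and 45.8 in ICR. Those groups did not overlap either, but the difference of 0.96 ± 0.25 missed the threshold (limma adjusted p = 0.0605), which it passed without ICGN replicate 3 of 8 weeks.

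Tlr1, the partner of TLR2 in sensing triacylated lipoproteins, read 119, 123 and 143 in ICGN and 42.1, 41.8 and 55.5 in ICR at 8 weeks. All ICGN arrays were higher, and the difference was 1.44 ± 0.23 (limma adjusted p = 0.00101). At 4 weeks its ICGN signals of 94.3, 130 and 75.8 overlapped the ICR signals of 34.0, 58.7 and 75.9, with a difference of 0.75 ± 0.23 (limma adjusted p = 0.121). Tlr4, the LPS receptor, had group means of 88.8 ± 29.8 (SD, n = 3) in ICGN and 65.6 ± 4.05 in ICR at 8 weeks. The groups overlapped, and the difference of 0.52 ± 0.21 was not called (limma adjusted p = 0.224). Tlr5 and Tlr6 stayed below the signal filter.

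Of the endosomal receptors, which sense nucleic acids, Tlr13 and Tlr3 were called higher at 8 weeks. Tlr13, a mouse receptor for bacterial ribosomal RNA, read 51.7, 55.8 and 51.4 in ICGN against 25.4, 17.7 and 24.7 in ICR at 4 weeks. At 8 weeks it read 82.0, 76.4 and 104 against 42.1, 31.5 and 37.2. ICGN arrays were higher at both ages with no overlap, by 0.92 ± 0.21 (limma adjusted p = 0.0282) and by 1.19 ± 0.21 (limma adjusted p = 0.00212). All ICR signals lay under the array median, and Tlr13 entered the test only through its ICGN arrays. The values ran from 0.51 with 4 times the offset to 1.27 with no offset at 4 weeks, and from 0.80 to 1.44 at 8 weeks, and were called with no filter as well. With the replicate number as a block the 4-week call was lost. Tlr3, the receptor for double-stranded RNA, had means of 191 ± 17.9 and 123 ± 34.6 at 8 weeks. Its difference was 0.80 ± 0.20 (limma adjusted p = 0.0277), and a second, dimmer Tlr3 probe set, at 0.60 ± 0.28, was not called (limma adjusted p = 0.261, in a fit of all tested probe sets). The Tlr3 call was lost without ICGN replicate 1 or 3 or ICR replicate 2 of 8 weeks. Tlr9, the receptor for CpG DNA, was not called at either age, and its 8-week ICGN signals of 28.1, 14.7 and 62.0 lay on both sides of the ICR signals. Tlr7 and Tlr8 stayed below the filter.

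Cd14, which hands LPS to TLR4 and also serves other TLRs, gave the smallest adjusted p of the members in both strain comparisons. At 4 weeks it read 537, 525 and 710 in ICGN and 272, 332 and 307 in ICR, a difference of 0.94 ± 0.13 (limma adjusted p = 0.00118). At 8 weeks it read 1055, 1040 and 1203 against 358, 358 and 397, a difference of 1.72 ± 0.13 (limma adjusted p = 2.51e-06). The groups were far apart at both ages, and each ICGN array of 8 weeks lay above each ICGN array of 4 weeks. The other parts of the LPS receptor were not called: Ly96, the MD-2 subunit, differed by 0.46 ± 0.16 at 8 weeks (limma adjusted p = 0.19). Lbp, the plasma protein that extracts LPS, differed by 0.58 ± 0.17 (limma adjusted p = 0.081).

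Of the adaptor Myd88 and the kinases Irak1 and Irak2, none was called higher at either age. Myd88 read 356, 403 and 468 in ICGN and 313, 332 and 349 in ICR at 8 weeks. Its groups did not overlap, but the difference of 0.47 ± 0.12 missed the threshold (limma adjusted p = 0.0775). That test was on 0.29, the Myd88 difference before the median gene was subtracted. The tested differences of Irak1 and Irak2 were -0.56 and -0.53, so such calls depend on where the median gene stands. Irak1, a kinase recruited by MyD88, was called lower: it read 331, 473 and 404 in ICGN and 576, 550 and 658 in ICR, a difference of -0.37 ± 0.14 (limma adjusted p = 0.00582). All 3 ICGN arrays were below all ICR arrays in this probe set, but none of the 3 other tested Irak1 probe sets was called, and their differences ran from -0.08 to 0.17. The Irak1 call was lost with the mean of the probe sets (limma adjusted p = 0.146). Irak2 read 276, 274 and 309 in ICGN and 353, 405 and 514 in ICR, again without overlap, a difference of -0.35 ± 0.16 (limma adjusted p = 0.0204). It lost its call under quantile normalization (limma adjusted p = 0.0717) and without ICGN replicate 1, ICGN replicate 2 or ICR replicate 3 of 8 weeks, and both kinases lost theirs under the deposited scaling. Irak3, an inhibitory family member, stayed below the filter, with signals of 64.0, 44.0 and 80.8 in ICGN and 18.6, 12.3 and 16.7 in ICR at 8 weeks. Its 3 ICGN arrays were above its ICR arrays, and no test is given.

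The cIAP ubiquitin ligases, which work with the TRAF proteins, were called higher while the tested TRAFs were not. Birc3 (cIAP2, itself an NF-kB target) read 333, 326 and 295 in ICGN and 151, 183 and 149 in ICR at 4 weeks, a difference of 0.95 ± 0.23 (limma adjusted p = 0.0422). At 8 weeks it read 371, 340 and 678 in ICGN and 313, 161 and 245 in ICR, a difference of 1.08 ± 0.23 (limma adjusted p = 0.00903). The groups did not overlap at either age, though at 8 weeks the lowest ICGN and the highest ICR array were close. Birc2 (cIAP1) had means of 856 ± 191 and 492 ± 14.4 at 8 weeks, a difference of 0.95 ± 0.14 (limma adjusted p = 0.000745). Traf2 and Traf6 differed by 0.44 and 0.05 at 8 weeks, with limma adjusted p of 0.119 and 0.628. Before the median gene was subtracted these differences, which the test used, were 0.25 and -0.13. Traf1 stayed below the filter.

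Of the kinase complex itself, Ikbkb and Ikbkg were tested and showed no called change. Chuk, its other catalytic subunit, had no probe set named by the annotation and was not measured. Ikbkb, the catalytic subunit IKK-beta, had means of 753 ± 80.7 in ICGN and 771 ± 70.8 in ICR at 8 weeks. Ikbkg, the scaffold NEMO, had means of 278 ± 44.8 and 282 ± 22.1, and none of its 6 tested probe sets was called at either age. A dimmer Ikbkg probe set came near at 8 weeks, at -0.48 ± 0.23 (limma adjusted p = 0.0529, in a fit of all tested probe sets). Ikbke, an IKK-related kinase, stayed below the filter.

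Of the NF-kB subunits, the 2 of the alternative pathway were called higher and Rela was not. Nfkb2, the precursor that is processed to a DNA-binding subunit, read 145, 129 and 142 in ICGN and 59.2, 68.9 and 90.1 in ICR at 4 weeks. The groups were apart, by 0.86 ± 0.19 (limma adjusted p = 0.0272). At 8 weeks it read 107, 83.2 and 129 against 76.4, 50.7 and 71.5, a smaller gap of 0.77 ± 0.19 (limma adjusted p = 0.0285). Its second tested probe set, of a kind prone to cross-hybridisation, was not called: it differed by 1.12 at 4 weeks (limma adjusted p = 0.0655) and by 0.17 at 8 weeks (limma adjusted p = 0.979). The 8-week Nfkb2 call was lost without ICGN replicate 1 or 3 or ICR replicate 2 of that age. Relb, the usual partner of that subunit, read 91.0, 104 and 122 in ICGN and 57.8, 40.7 and 45.1 in ICR at 8 weeks. Its groups did not overlap, and the difference was 1.15 ± 0.21 (limma adjusted p = 0.00273). At 4 weeks Relb read 69.4, 72.5 and 99.7 against 56.1, 33.4 and 44.0, and that difference of 0.72 ± 0.21 was not called (limma adjusted p = 0.0888). Rela, the main activating subunit, had means of 683 ± 73.6 and 628 ± 29.4 at 8 weeks (difference 0.30 ± 0.12, limma adjusted p = 0.503). Rel stayed below the filter.

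Of the 7 IkB and A20 genes, several of which NF-kB itself induces, 5 were called higher at 8 weeks, against 8.49% of all tested genes. Nfkbie (IkB-epsilon) read 291, 338 and 607 in ICGN and 95.5, 84.7 and 93.3 in ICR at 8 weeks. The ICR arrays were tightly grouped and far below, and the difference was 2.14 ± 0.24 (limma adjusted p = 3.92e-05). At 4 weeks Nfkbie read 151, 131 and 167 against 134, 70.2 and 84.8, with overlapping groups and a difference of 0.63 ± 0.24 that was not called (limma adjusted p = 0.22). Both of its tested probe sets were called at 8 weeks, at 2.12 and 1.23.

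Nfkbia (IkB-alpha, the classical inhibitor) read 4894, 5908 and 7335 in ICGN and 5398, 3098 and 4077 in ICR at 8 weeks. ICGN replicate 1 lay below ICR replicate 1, so the groups overlapped, and the difference was 0.73 ± 0.19 (limma adjusted p = 0.0389). Of its 5 tested probe sets 4 were called higher, up to 1.20. The call of the probe set that stands for the gene was lost without ICGN replicate 2 or 3 or ICR replicate 2 or 3 of 8 weeks, and without ICGN replicate 2 of 4 weeks. Nfkbib (IkB-beta) had means of 313 ± 53.8 and 321 ± 29.6 and was not called at either age.

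The atypical inhibitors act in the nucleus. Nfkbiz (IkB-zeta, which also helps to induce secondary response genes) read 411, 295 and 371 in ICGN and 164, 98.5 and 144 in ICR at 8 weeks. All ICGN arrays were higher, by 1.52 ± 0.18 (limma adjusted p = 7.12e-05), and all 3 of its tested probe sets were called. At 4 weeks it read 159, 176 and 162 against 194, 149 and 146, and the groups overlapped with a difference of 0.05 ± 0.18. Bcl3 was not called at either age, with 8-week signals of 124, 93.4 and 165 in ICGN and of 50.2, 68.2 and 137 in ICR, which overlapped.

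Tnfaip3 (A20, the ubiquitin-editing enzyme that shuts off signalling to IKK) was called higher at both ages. It read 232, 211 and 254 in ICGN and 106, 111 and 124 in ICR at 4 weeks, a difference of 0.97 ± 0.15 (limma adjusted p = 0.00249). At 8 weeks it read 354, 369 and 515 against 129, 103 and 115, a difference of 1.89 ± 0.15 (limma adjusted p = 2.9e-06). The ICR arrays of the 2 ages covered overlapping ranges, and the ICGN arrays of 8 weeks all lay above those of 4 weeks. Tnip1 (ABIN-1, the ubiquitin-binding partner of A20) read 645, 554 and 715 in ICGN and 357, 335 and 345 in ICR at 8 weeks, a difference of 1.04 ± 0.12 (limma adjusted p = 0.000147). At 4 weeks it read 533, 519 and 536 against 496, 387 and 464, without overlap but not called (0.26 ± 0.12, limma adjusted p = 0.394). All ICR arrays of 8 weeks were below those of 4 weeks for Tnip1, by -0.45 ± 0.12 (limma adjusted p = 0.0396).

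**Figure D2:**
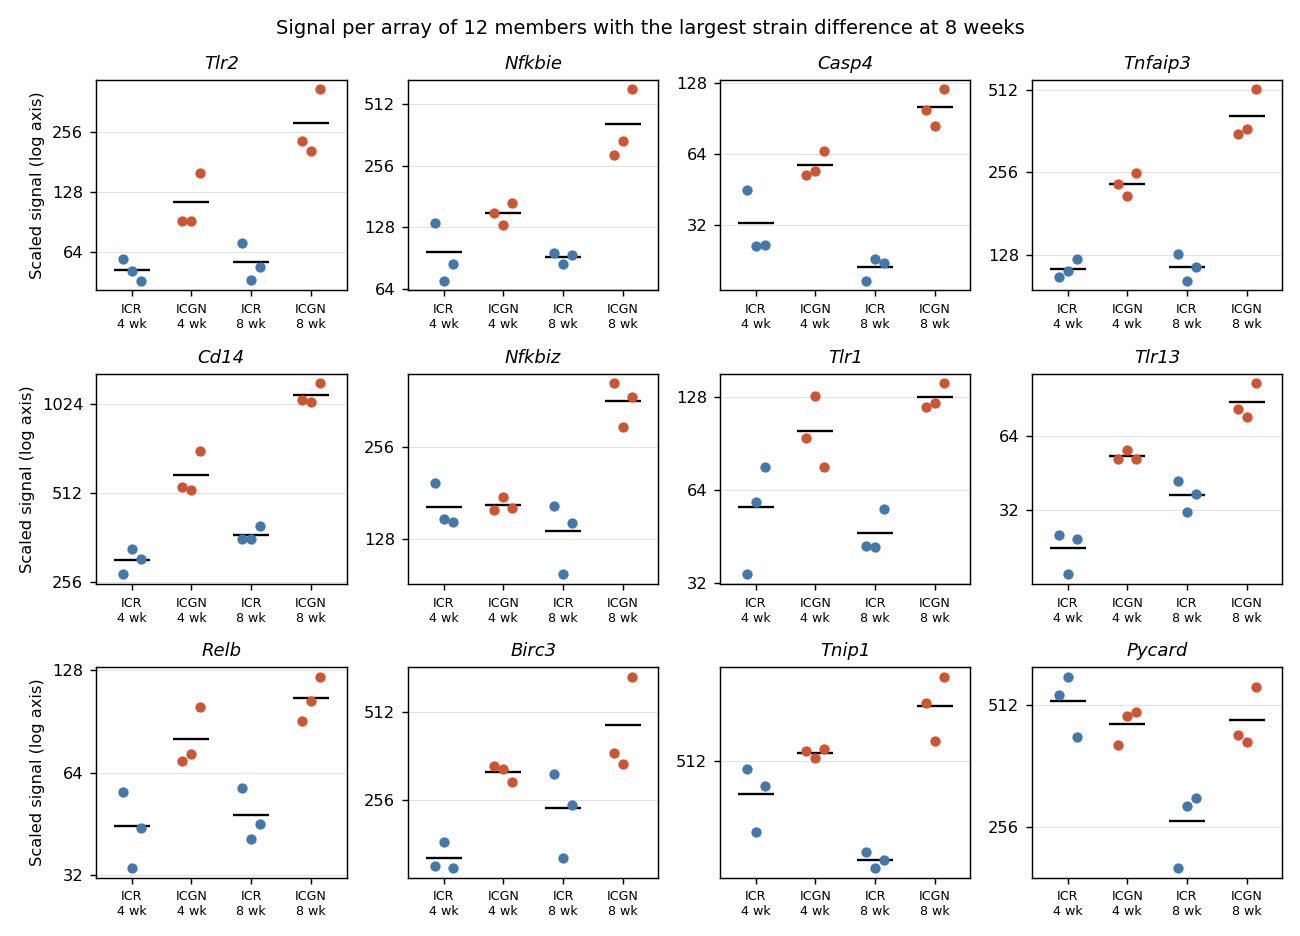
Scaled signal (log axis) of 12 members in each of the 12 arrays, ICR in blue and ICGN in red at 4 and 8 weeks, with a bar at each group mean. In all 12 members the 3 ICGN arrays of 8 weeks lie above the 3 ICR arrays of 8 weeks, and for Pycard, Tnip1 and Casp4 every ICR array of 8 weeks lies below every ICR array of 4 weeks (not called for Casp4).

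Of the inflammasome genes 4 of 5 were called higher at 8 weeks and none at 4 weeks. Of all tested genes 8.49% and 1.6% were called higher at these ages. Without ICGN replicate 3 of 8 weeks Nlrp3 and Gsdmd lost their calls. Casp4, the murine non-canonical caspase that senses LPS in the cytosol, read 98.0, 83.7 and 120 in ICGN and 18.5, 22.8 and 22.1 in ICR at 8 weeks. All ICR signals lay under the common array median and all ICGN signals above it at both ages, so Casp4 entered the test only through ICGN arrays. The difference of 1.91 ± 0.23 (limma adjusted p = 7.22e-05) depends on the offset: it was 2.43 with no offset and 1.21 with 4 times the offset. It was called in both cases and with no filter. At 4 weeks Casp4 read 51.7, 53.8 and 65.6 against 44.9, 26.0 and 26.2, without overlap and not called (0.67 ± 0.23, limma adjusted p = 0.161).

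Pycard, the adaptor ASC, read 431, 416 and 566 in ICGN and 203, 289 and 302 in ICR at 8 weeks, with no overlap and a difference of 0.99 ± 0.17 (limma adjusted p = 0.00226). At 4 weeks the order was not the same: ICGN read 407, 481 and 493 and ICR 540, 600 and 427, and the difference of -0.15 ± 0.17 was not called. From 4 to 8 weeks Pycard changed by -1.04 ± 0.17 in ICR (limma adjusted p = 0.000766) and by 0.10 ± 0.17 in ICGN (limma adjusted p = 0.942). Nlrp3, the sensor, had means of 72.8 ± 6.79 in ICGN and 37.8 ± 8.55 in ICR at 8 weeks, a difference of 0.95 ± 0.27 (limma adjusted p = 0.0401). It lay above the array median in 4 of the 12 arrays only. Gsdmd, the pore former gasdermin D, had means of 102 ± 14.3 and 68.1 ± 7.77, a difference of 0.69 ± 0.18 (limma adjusted p = 0.0394). The Nlrp3 call was lost without any 1 of the ICGN arrays or ICR replicate 2 or 3 of 8 weeks, and the Gsdmd call without any 1 of the 6 arrays of that age. With no offset the Nlrp3 call was lost too, and its difference ran from 0.63 to 1.16 over the processing alternatives. Casp1, the canonical inflammasome caspase, was near the filter, with 8-week signals of 37.4, 52.3 and 65.8 in ICGN and of 28.9, 15.5 and 47.5 in ICR, and its difference of 0.80 ± 0.35 was not called (limma adjusted p = 0.181). Nod1, a cytosolic peptidoglycan sensor, was not called, with means of 132 ± 14.4 and 142 ± 4.83 at 8 weeks.

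**Figure D3:**
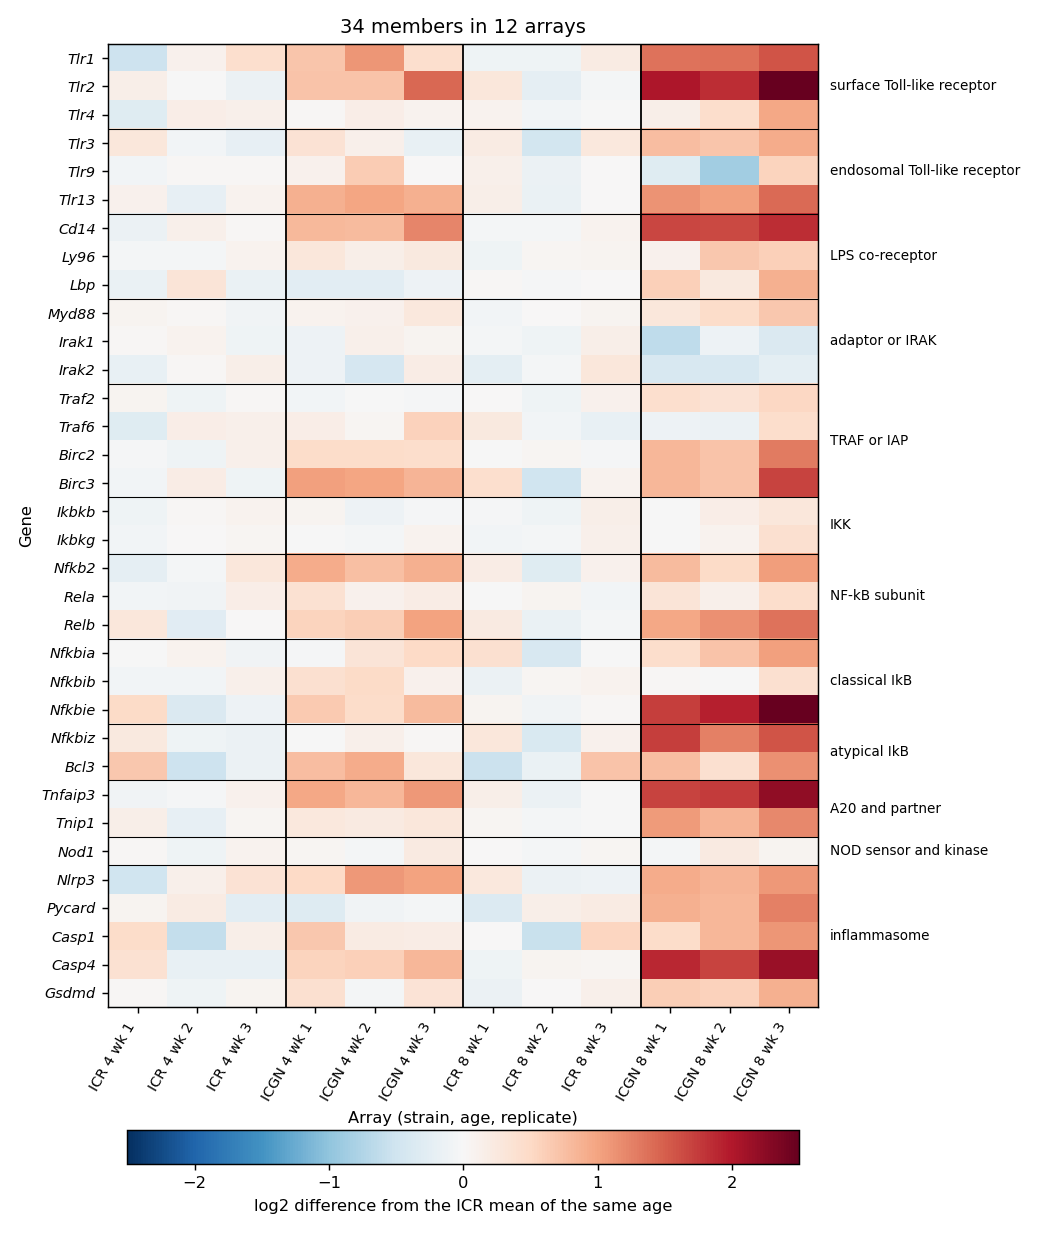
Log2 difference of each of the 34 tested members from the ICR mean of the same age, in the 12 arrays (columns, grouped by age and strain), with members grouped by role. The ICGN arrays of 8 weeks are mostly red, most so for Tlr2, Nfkbie, Casp4, Tnfaip3 and Cd14 and in replicate 3, while Irak1 and Irak2 are blue in all 3 of them.

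Whether the strain difference itself differed between the ages was tested with the interaction term, ICGN minus ICR at 8 weeks less the same at 4 weeks. It was called higher for 5 of the 34 members and lower for 0, against 2.21% and 5.68% of all tested genes (7.9% in either direction). These were Nfkbie at 1.52 ± 0.34 (limma adjusted p = 0.0259), Nfkbiz at 1.48 ± 0.25 (limma adjusted p = 0.0081) and Pycard at 1.15 ± 0.24 (limma adjusted p = 0.024). The other two were Tnfaip3 at 0.93 ± 0.21 (limma adjusted p = 0.0415) and Tnip1 at 0.79 ± 0.17 (limma adjusted p = 0.0431). Without ICGN replicate 3 of 8 weeks Tnfaip3 and Tnip1 lost this call, and 3 remained. For Tlr2, Casp4 and Cd14 the term was 1.29, 1.25 and 0.78 and not called (limma adjusted p = 0.0658, 0.0523 and 0.0559). For the remaining members called at 8 weeks and not at 4 weeks, the data do not show that the ages differ.

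Age was compared within each strain, with the limit that arrays of the 2 ages had been scaled to different targets before deposit and that age and array batch cannot be told apart. In ICGN 8 members were called higher at 8 than at 4 weeks and 0 lower, against 6.35% and 12.8% of all genes (19.1% in either direction). They were Nfkbie (1.40), Tlr2 (1.29), Nfkbiz (1.13), Cd14 (0.97), Nfkbia (0.96), Tnfaip3 (0.86), Casp4 (0.77) and Birc2 (0.74). In ICR 4 were called higher and 3 lower, against 18% and 10.7% of all genes (28.7% in either direction). Those higher were Nlrp3 (0.76), Irak1 (0.62), Nfkbia (0.49) and Nfkbib (0.37), and those lower were Pycard (-1.04), Lbp (-0.90) and Tnip1 (-0.45). The ICR arrays of 4 weeks all lay under the array median for Nlrp3, so its size rests on the offset. That value ran from 0.16 to 1.29 over the processing alternatives. The Nfkbia value in ICR turned to -0.17 with the mean of all its tested probe sets, and that call is therefore uncertain. In ICGN the same mean gave 0.42 for Nfkbia, which was then not called (limma adjusted p = 0.198). On leaving out 1 of the arrays compared, Casp4 in ICGN (any 1 of the 6) and Nfkbia, Nfkbib, Nlrp3 and Tnip1 in ICR (2 to 5 of the 6) lost their calls. Each age comparison shares its arrays with the strain comparisons.

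The 13 members without a test were of 2 kinds. The annotation named no probe set for Irak4, Traf3, Nfkb1, Nod2 and Ripk2, which were not analysed here. Tlr5, Tlr6, Tlr7, Tlr8, Irak3, Traf1, Ikbke and Rel were named but lay above the array median in 0 to 2 arrays. Casp4 and Tlr13 passed the filter only through ICGN arrays, and Nlrp3 and Casp1 through 3 and 2 ICGN arrays of 8 weeks and 1 ICR array. Relb lay above the array median in 3 ICGN arrays and 1 ICR array of each age. Tlr9 did so in 1 ICGN array of each age and 1 ICR array of 8 weeks. None of these members would have passed on ICR arrays alone. Their tests are thus tied to the filter, and the counts above describe the tested members only.

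Other genes of the same pathways were read from 5 lists. Of 21 tested NF-kB target genes, 6 were called higher at 4 weeks and 0 lower, and 15 higher and 1 lower at 8 weeks, with medians of 0.64 and 1.20. Over all tested genes, the share with a higher call at 4 weeks was 1.6%, and the share with a lower call was 1.39%. The background at 8 weeks was 8.49% higher and 26% lower. With ICGN replicate 3 of 8 weeks left out, the 8-week counts for these targets became 13 for higher calls and 2 for lower calls. Vcam1, an adhesion molecule whose arrays all lay above the array median, differed by 3.63 at 8 weeks. Lcn2 (lipocalin 2), the monocyte chemokine Ccl2 and the neutrophil chemokine Cxcl2 were called higher at 8 weeks too, with fitted differences of 5.37, 3.78 and 2.69. Their ICR arrays all lay under the array median, so they were tested only through ICGN arrays and the sizes rest on the offset. At 4 weeks the ICR arrays of Ccl5 (2.37), Lcn2 (1.79) and Ccl2 (1.78) were likewise all under the median, and their sizes rest on the offset too, while Cxcl10 (1.53) was above it in all 6 arrays of that age. Sod2, the mitochondrial superoxide dismutase, was the target called lower at 8 weeks (-0.42). Of 9 tested nucleic acid sensors and C-type lectins, 6 were called higher at 8 weeks, including the beta-glucan receptor Clec7a (1.93), the RNA sensor Ifih1 (1.41), the signalling chain Fcer1g (1.32) and Clec4n (1.25). The 2 called lower were Mavs (-0.25) and Trim25 (-0.22), and neither was called lower under quantile normalization or the deposited scaling. Clec4n was also the member of that list called at 4 weeks (0.83). Without ICGN replicate 3 of 8 weeks, 5 of the list were called higher and 2 lower at 8 weeks.

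Among 17 other inflammasome and cell death genes, 4 were called higher and 6 lower at 8 weeks, against 8.49% and 26% of all genes, with a median of -0.02. The higher ones were the interleukin-1 receptor antagonist Il1rn (1.64), Casp12 (1.44), the MHC class I regulator Nlrc5 (1.12) and the redox protein Txnip (0.97). All ICR arrays of Nlrc5 lay under the array median, so it was tested only through ICGN arrays and its size rests on the offset. The 6 lower calls fell to 1 under quantile normalization and to 2 under the deposited scaling, and Naip2 (-0.94) kept its call under both. Over all genes the lower calls fell from 3225 to 1669 under quantile normalization and to 1563 under the deposited scaling. Il1b, the cytokine that inflammasomes mature, was called at 4 weeks (0.86) and not at 8 weeks (0.51, limma adjusted p = 0.233). The ICR arrays of 4 weeks all lay under the array median for Il1b, so its 4-week size rests on the offset. Among 21 other adaptors, kinases and co-factors, Ly86 (MD-1, the partner of a TLR homologue) was called higher at both ages, by 0.97 and 1.63. In that list 6 were called lower at 8 weeks, close to the 26% of all genes, among them the scavenger receptor Cd36 (-1.28), Ecsit (-0.50) and Sqstm1 (-0.30). Under quantile normalization 4 were lower and 3 higher, and Sqstm1 lost its call. Under the deposited scaling 3 were lower and 4 higher. Among 18 other negative regulators, Atf3 (2.11), Socs3 (1.67) and Cd300lf (0.92) were called higher at 8 weeks, and 5 were called lower, also close to the background of 26%, among them Sigirr (-0.43), an inhibitory receptor of the interleukin-1 receptor family. The 5 became 3 under quantile normalization and 2 under the deposited scaling. The ICR arrays of 8 weeks all lay under the array median for Atf3 and Socs3, so these sizes rest on the offset. Atf3 (1.53) was called at 4 weeks as well.

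**Figure D4:**
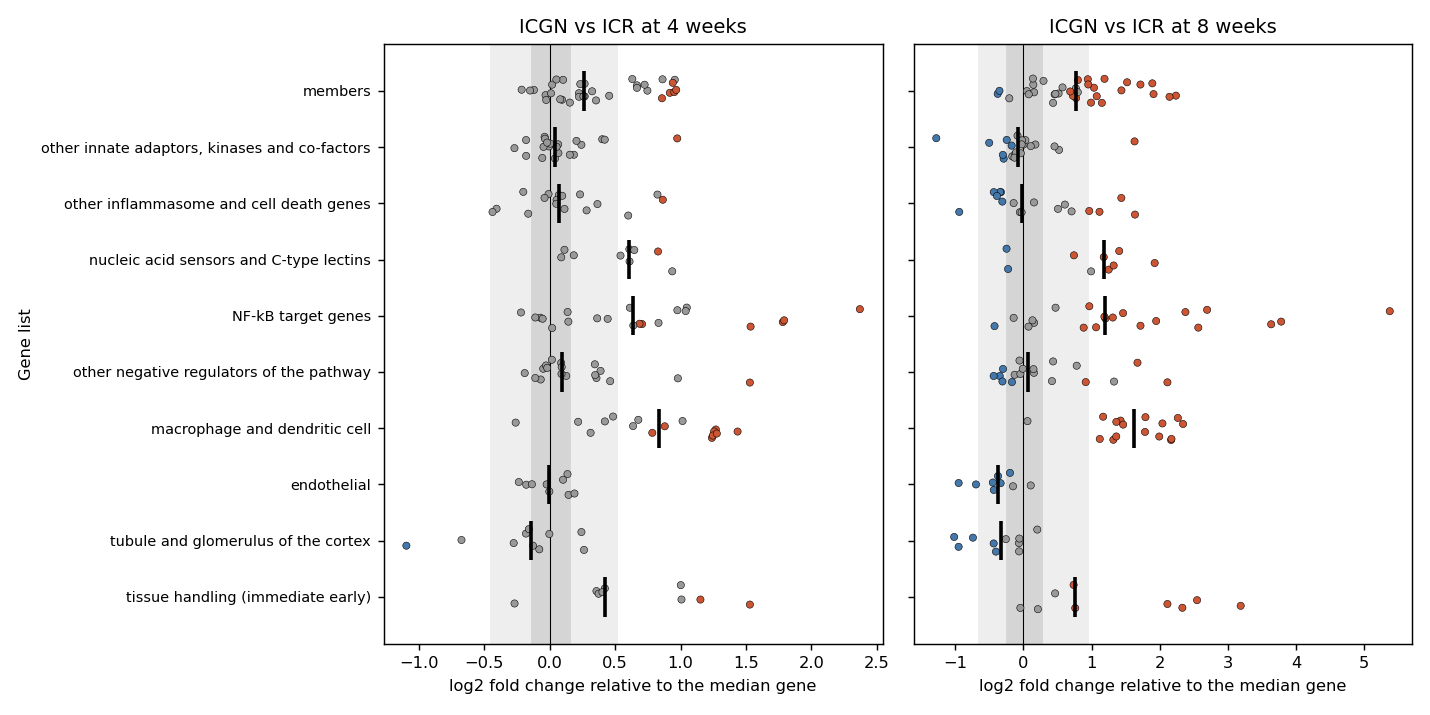
Strain difference (log2, relative to the median gene) of the members, of 5 lists of related genes and of 4 marker lists at 4 weeks (left) and 8 weeks (right), 1 point a gene, red where called higher, blue where called lower and grey where not called. Vertical bars are list medians and the shaded bands hold the central 50% and 90% of all tested genes; at 8 weeks the members' median of 0.77 lies above the inner band, which ends at 0.28.

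Some marker lists also differed between the strains, in both directions. In bulk tissue, fewer or more cells of a type and less or more RNA per cell cannot be told apart. Of 16 macrophage and dendritic cell markers, 8 were called higher in ICGN at 4 weeks and 15 at 8 weeks, none lower. Of all tested genes 1.6% and 8.49% were called higher at these ages. Without ICGN replicate 3 of 8 weeks the 8-week count of these markers was 14. Their summed signal ran from 2930 to 3905 in ICR and from 4860 to 5509 in ICGN at 4 weeks, and from 4058 to 5483 and from 8618 to 10820 at 8 weeks. Of 10 neutrophil markers with a probe set, 9 lay above the array median in at most 2 arrays, and the sum at 8 weeks was 198 to 246 in ICGN and 228 to 308 in ICR. Of 12 lymphocyte and plasma cell markers with a probe set, 4 were tested and Jchain and Mzb1 were called lower at 8 weeks, with sums of 670 to 901 in ICGN and 1228 to 4544 in ICR. Immediate early genes, which also respond to tissue handling, were called higher for 2 of 9 at 4 weeks and for 6 of 9 at 8 weeks. The shares of all tested genes were the same 1.6% and 8.49%. Without ICGN replicate 3 of 8 weeks the 8-week count was 4 of 8. Their sums at 8 weeks were 3953 to 6438 in ICGN and 2552 to 4583 in ICR, highest in ICGN replicate 3. Atf3 is on that list too. None of 5 inner medulla markers was called at either age. All 10 markers of cortical tubule and glomerulus with a probe set passed the signal filter. Of these 5 were called lower at 8 weeks, as were 7 of 9 endothelial markers, against 26% of all genes. Under quantile normalization these were 3 lower and 1 higher, and 5 lower, while the lower calls over all genes fell from 3225 to 1669. The part of these shifts in the members' differences was not tested.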

How the data were processed

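The authors deposited one signal per probe set and array, an intensity on a linear scale; the submitters' processing notes name MAS5, and no version is given in the sources used here. The deposited intensity had a trimmed mean of 100.0 at 4 weeks and 500.0 at 8 weeks in each array, which are different scaling targets. Of 45101 probe sets, 34958 had 1 gene symbol in the platform annotation, 932 several and 9211 none; 34754 matched RefSeq's gene table of GRCm38.p6, which changed 0 symbols.

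R 4.3.3 and limma 3.58.1 were used. Arrays were brought to a shared median of 47.18 and log2(signal + 12.91) was taken. The offset is the 25th percentile of the signals and makes changes of dim genes look smaller. Only probe sets above their array median in at least 3 of 12 arrays entered the test. A gene was represented by its brightest probe set, those ending in _x_at last. One model with 4 group means (8 residual degrees of freedom) and a mean-variance trend gave 5 contrasts, with Benjamini-Hochberg adjustment over 12385 genes. The number of arrays limits the precision. The fits were tested on simulated data with independent noise. They recovered 77% of changes of 1 on the log2 scale at 4 weeks, 81% at 8 weeks and 56% for the interaction. An interaction of that size can thus be missed.

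The members and gene lists were chosen with earlier results of these data known. Signals per array are given for members called at 4 weeks, for the 12 with the largest differences at 8 weeks among called members whose groups do not overlap, for members called lower and for members called in the interaction; Tlr9, Myd88, Irak3, Nfkbia, Bcl3 and Casp1 were added after their values were seen. Of each pathway list the 4 called genes with the largest differences are named, and Sod2, Mavs, Trim25, Naip2 and Il1b were added in the same way. Over all tested genes same-numbered replicates did not deviate together (correlations of -0.093 to 0.097), and the main fit did not pair them. The summed signal of 5 inner medulla markers, however, was highest in replicate 2 and lowest in replicate 3 in each of the 4 groups. Whether the numbers pair samples is thus not settled.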

Additional observations from a re-analysis of the deposited data

Results flagged for a closer look

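The strain difference was larger at 8 than at 4 weeks, by the test of the interaction itself, for 5 members. The difference between the ages was 1.52 for Nfkbie, 1.48 for Nfkbiz, 1.15 for Pycard, 0.93 for Tnfaip3 and 0.79 for Tnip1 on the log2 scale (limma adjusted p = 0.0259, 0.0081, 0.024, 0.0415 and 0.0431). Nfkbiz was called under every alternative tried, at adjusted p from 0.00423 to 0.0251. Pycard lost its call without ICGN replicate 1 or ICR replicate 2 of 4 weeks, and Nfkbie without ICGN replicate 2 or ICR replicate 1 of 4 weeks. Nfkbie also lost it with no filter (limma adjusted p = 0.0521) and with the mean of its tested probe sets (1.10, limma adjusted p = 0.0648). Tnfaip3 and Tnip1 lost it with no filter and without the mean-variance trend. Tnfaip3 lost it without any 1 of the 4-week arrays and Tnip1 without 5 of these 6, and both lost it without ICGN replicate 3, ICR replicate 2 or ICR replicate 3 of 8 weeks. Tnip1 lost it also without ICGN replicate 1 or ICR replicate 1 of 8 weeks; their adjusted p reached 0.0947 and 0.0923.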

How the results depend on the processing

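No called member changed direction under any alternative in the strain comparisons or the interaction, and calls kept under every alternative numbered 2 of 5 at 4 weeks, 13 of 20 at 8 weeks, 1 of 5 for the interaction, 3 of 7 for age in ICR and 6 of 8 for age in ICGN. Nfkbia from 4 to 8 weeks in ICR turned to -0.17 with the mean of its probe sets. At 4 weeks no filter and a stricter filter (above the 75th percentile of the array) each left 3 members called, and leaving out 1 array gave 2 to 7. At 8 weeks the stricter filter, with fewer members tested, left 11, leaving out 1 array gave 15 to 20, and the deposited scaling called 25, all higher. Interaction calls numbered 8 with arrays centred on the tested genes, 11 with the deposited scaling, 2 with no filter and 2 to 7 with 1 array left out. With the deposited scaling all 34 members were called higher in both age comparisons, by the construction of the 2 targets; leaving out 1 array gave 3 to 8 calls in ICR and 7 to 9 in ICGN. With the replicate block the counts were 4, 20, 6, 6 and 7 in the same order of comparisons; Tlr13, Nlrp3 (age in ICR) and Casp4 (age in ICGN) lost calls and Cd14 gained one in the interaction.

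Over all genes, calls at 4 weeks rose from 370 to 562 under quantile normalization and fell to 173 without ICGN replicate 2, 195 without ICGN replicate 1 and 233 without ICR replicate 2. The share of 8-week calls that were higher was 24.6%, but 50.4% under quantile normalization and 60.7% under the deposited scaling; for the interaction it was 28%, 54% and 60.3%, and for age in ICR 62.7% and 45.2% under quantile normalization. Interaction calls over all genes ranged down to 476 of 978 with 1 array left out. Age calls numbered 3556 in ICR and 2371 in ICGN, against 12103 and 12275 with the deposited scaling, and fell in ICGN to 1471 without ICGN replicate 1 and 1541 without ICGN replicate 2 of 4 weeks. Where no other cause is named, it was not tested. Dim probe sets limit what could be seen: 8 members lay too near background for a test.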
